A study of Mus musculus with 11 samples.

Results

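Brain pericytes were examined in single-cell RNA sequencing of mouse cerebral microvessels. The members were chosen by measured values. A pericyte was a barcode with at least 500 genes and at most 10% of its UMIs (unique molecular identifiers, each standing for 1 captured RNA molecule) from mitochondrial genes, in which Vtn, Kcnj8, Abcc9, Higd1b and Atp13a5 together had at least 4 UMIs with at least 2 of the 5 detected. Barcodes with more than 1 Myh11 UMI, more than 5 Acta2 UMIs, more than 3 UMIs of Cldn5 and Flt1 together or more than 1 UMI of P2ry12 and Cx3cr1 together were left out, which set limits on smooth muscle, endothelial and microglial RNA. This gave 446 pericytes among 61625 kept barcodes (0.724%), of 66658 deposited. The study compared a mouse model of CADASIL, an inherited small vessel disease caused by NOTCH3 variants, with its control. R182C-TgN3 mice (n = 6, line name Tg350) carried human NOTCH3 as a transgene bearing the R182C variant, and WT-TgN3 mice (n = 5, line name Tg100) carried the transgene without it. Both groups also kept mouse Notch3, and no mouse was treated. There were 3 R182C-TgN3 mice at 6 months and 3 at 9 months of age, and 3 WT-TgN3 mice at 6 months and 2 at 9 months, with both sexes in each of these 4 sets. The variant and the transgene line cannot be told apart in this design. Each mouse gave 1 library from vessel fragments pulled down with CD31-coated magnetic beads, so a share of barcodes describes the suspension and not the tissue. The labels place the mice in 4 batches named by a date. Mice of 9 months were in batches 1 and 2 and mice of 6 months in batches 3 and 4, and batch 2 held 1 R182C-TgN3 mouse only, so age and batch cannot be told apart.

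Pericytes are mural cells that sit on capillaries inside the basement membrane they share with the endothelium, and in the brain they take part in barrier maintenance, capillary stability and the regulation of capillary tone. They depend on endothelial PDGF-B acting through the receptor Pdgfrb. NOTCH3 is a receptor of mural cells: a ligand on a neighbouring cell triggers cleavage, and the released intracellular part joins the DNA-binding protein RBPJ to switch on target genes such as Heyl and Hes1. Vascular smooth muscle, the other mural cell, wraps arteries and arterioles and carries far more contractile protein.

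The 5 marker genes cover different functions. Vtn (vitronectin, a secreted adhesion protein) lies on chromosome 11 at 78499091 to 78502324 on the plus strand of mm10. Kcnj8 (chromosome 6, 142564837 to 142571614, minus strand) and Abcc9 (chromosome 6, 142587862 to 142702315, minus strand) encode the pore and the regulatory subunit of an ATP-sensitive potassium channel and are neighbours, 16247 bp apart. Atp13a5 (chromosome 16, 29231851 to 29378732, minus strand) encodes a P5-type transport ATPase, and Higd1b (chromosome 11, 102835849 to 102838040, plus strand) a HIG1 domain protein of mitochondria. The windows from 250 to 51 bases before the RefSeq start sites of 4 of these 5 genes are shown because the series concerns a Notch receptor and these genes mark the cells. They were read from GRCm38.p6, the assembly of mm10, and overlap no annotated exon. Each is written 5′ to 3′ on the strand of the gene, and capitals mark TGGGAA, the core sequence bound by RBPJ.
Vtn, chr11:78498870-78499069, plus strand: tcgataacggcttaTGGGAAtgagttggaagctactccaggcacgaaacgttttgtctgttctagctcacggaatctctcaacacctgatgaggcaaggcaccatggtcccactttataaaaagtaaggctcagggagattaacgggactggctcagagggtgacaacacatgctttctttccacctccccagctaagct
Kcnj8, chr6:142571665-142571864, minus strand: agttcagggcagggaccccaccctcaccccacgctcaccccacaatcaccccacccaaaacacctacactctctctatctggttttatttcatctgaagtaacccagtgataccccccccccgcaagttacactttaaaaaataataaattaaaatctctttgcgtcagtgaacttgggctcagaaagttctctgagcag
Abcc9, chr6:142702325-142702524, minus strand: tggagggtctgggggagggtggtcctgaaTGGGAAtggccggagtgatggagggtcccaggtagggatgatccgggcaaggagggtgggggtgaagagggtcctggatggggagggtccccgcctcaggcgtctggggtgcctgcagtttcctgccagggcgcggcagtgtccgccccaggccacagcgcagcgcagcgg
Atp13a5, chr16:29378783-29378982, minus strand: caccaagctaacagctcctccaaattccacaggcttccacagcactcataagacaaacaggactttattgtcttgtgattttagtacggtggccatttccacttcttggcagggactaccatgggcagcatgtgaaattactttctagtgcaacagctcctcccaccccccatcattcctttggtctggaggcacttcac
The search was for TGGGAA on either strand (TTCCCA on the other). The Vtn window and the Abcc9 window held 1 match each and the Kcnj8 and Atp13a5 windows 0, while 17.9% of 32851 promoter windows of the same length held at least 1. A match is a stretch of letters and not a shown binding site.

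The 5 markers were detected broadly in the selected barcodes. Vtn had a UMI in 97.8% of pericytes, Abcc9 in 89.0%, Atp13a5 in 86.3%, Higd1b in 83.2% and Kcnj8 in 77.6%. All 5 markers were present in 265 pericytes (59.4%), 4 in 99, 3 in 50 and only 2 in 32 (7.17%). The summed marker count ran from 4 to 156 UMIs with a median of 51.5. Just inside the threshold lay 3 barcodes with 4 UMIs and 4 with 5, and just outside it lay 8 barcodes with 3 UMIs that met every other condition. In smooth muscle cells (2012 barcodes with at least 2 Myh11 and 6 Acta2 UMIs) Higd1b was detected in 63.5% and Vtn in 40.8%, but Kcnj8 in 1.49% and Abcc9 in 1.79%, at a median of 7936.5 UMIs per cell against 2943.5 in pericytes. The smooth muscle limits mattered most: of 1960 barcodes that reached the marker minimum, 1104 exceeded the smooth muscle limit and 700 of these exceeded no other. Pericytes had a median of 1579 genes and 3.89% mitochondrial UMIs. These values describe how the cells were chosen and are not tested.

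**Figure D1:**
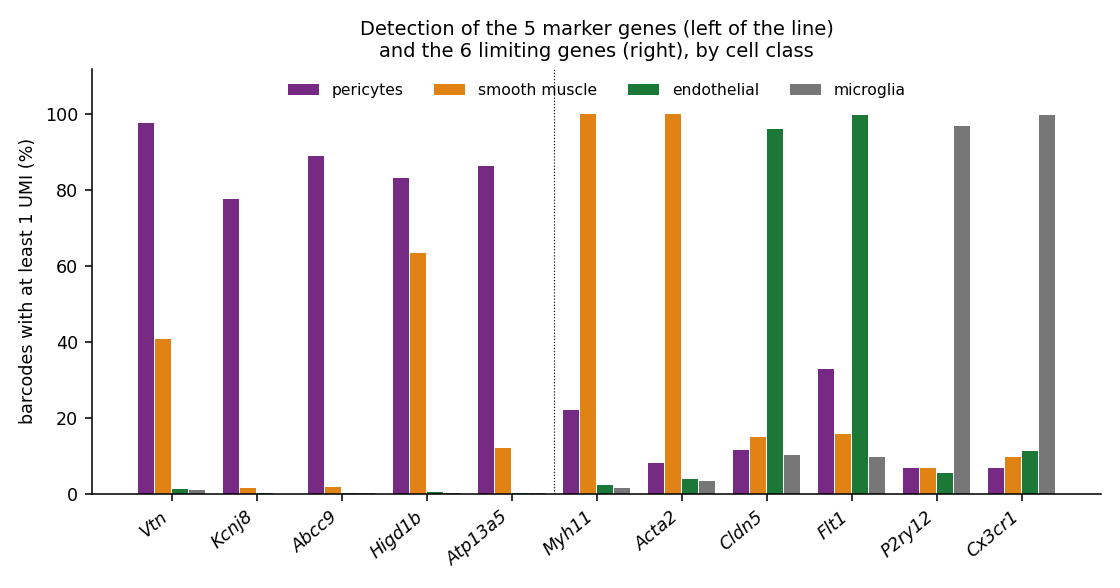
Share of barcodes with at least 1 UMI (y axis, %) of the 5 marker genes, left of the dotted line, and the 6 limiting genes, right of it, in pericytes, smooth muscle, endothelial cells and microglia of all 11 mice. Higd1b and Vtn were also detected in smooth muscle (63.5% and 40.8%), whereas Kcnj8 and Abcc9 were at 1.49% and 1.79% there.

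Library depth ranged from 17550806 to 64215050 UMIs, and the summed pericyte UMIs of a mouse from 59834 to 284687, so that 3 UMIs correspond to 10.5 to 50.1 CPM (counts per 1000000 UMIs of that cell type in a mouse). Numbers of pericytes were small, 27 to 97 in the R182C-TgN3 mice and 20 to 59 in the WT-TgN3 mice. Barcodes with a sequence shared between libraries numbered 2538 among the 66658 deposited barcodes, and 8 pericytes had one. Markers of other cell types were low but present: the summed level of 20 endothelial markers was 1207 to 1729 CPM in R182C-TgN3 pericytes and 1038 to 1786 CPM in WT-TgN3 pericytes, against 36970 CPM in endothelial cells. Summed smooth muscle markers (11 genes, Cnn1 and Actg2 at 0) were at 439 to 763 and 428 to 811 CPM, against 27990 CPM in smooth muscle, and summed microglial markers (12 genes, none at 0) at 425 to 1208 and 436 to 732 CPM, against 27260 CPM in microglia. Summed astrocyte markers (9 genes, Gfap, Aqp4, Aldoc and Ntsr2 at 0) were at 55.9 to 175 and 33.4 to 383 CPM, neuron markers (8 genes, Snap25 and Rbfox3 at 0) at 65.8 to 313 and 66.9 to 277 CPM, and oligodendrocyte markers (8 genes, Mog and Ermn at 0) at 5.59 to 42.1 and 17.2 to 189 CPM. The oligodendrocyte sum was lower in R182C-TgN3 pericytes (two-sided exact permutation p = 0.0411, unadjusted), and its part in the comparisons of genotypes was not tested.

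A small set of the selected barcodes carried fibroblast genes. In 16 barcodes (3.59% of pericytes) Lum, Col1a1 and Pdgfra together had at least 5 UMIs, whereas 422 pericytes had 0. The 16 barcodes had a median of 10854.5 UMIs against 2905.5 in the other pericytes and held 12.7% of all pericyte UMIs. Vtn was missing from 9 of them and from 1 of the others, Atp13a5 was present in 1, and Higd1b and Grm3 in 0. Their median count of Dcn, a matrix proteoglycan of fibroblasts, was 52 UMIs against 0. The R182C-TgN3 mice held 0, 3, 0, 2, 1 and 0 such barcodes and the WT-TgN3 mice 0, 2, 2, 4 and 2. The summed level of 11 fibroblast markers (Slc47a1 at 0) accordingly had a median of 883 CPM (470 to 2521) in R182C-TgN3 and 3098 CPM (735 to 3790) in WT-TgN3 pericytes (two-sided exact permutation test over mice, p = 0.0866). With the 16 barcodes left out these ranges were 470 to 794 and 571 to 745 CPM. Results on matrix genes are therefore given with and without them, a choice made after seeing the data.

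Among the remaining 430 pericytes the barcodes without an Atp13a5 UMI differed in composition from those with one. There were 46 barcodes without Atp13a5, found in all 11 mice, with a median of 3220 UMIs, and 384 with it, with a median of 2873.5 UMIs. Grm3, a metabotropic glutamate receptor gene that the selection did not use, had a UMI in 4 of the 46 barcodes (8.70%) and in 335 of the 384 (87.2%). Its pooled level was 40.9 CPM without and 1813 CPM with Atp13a5. Casq2, a calcium store protein, was at 11.7 and 467 CPM, the cation channel gene Trpc4 at 17.5 and 283 CPM, and the amino acid transporter gene Slc6a20a at 146 and 1100 CPM. These transport and calcium genes were all lower without Atp13a5, although depth per barcode was slightly higher there.

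Other genes ran in the opposite direction. Timp3, an inhibitor of matrix metalloproteinases, was at 1726 CPM in barcodes without Atp13a5 and 114 CPM in those with it. Mgp (matrix Gla protein) was at 3024 and 956 CPM, Col3a1 at 439 and 41.3 CPM, Id3 (a target of BMP signalling) at 1199 and 58.6 CPM, and Tagln, an actin-binding protein of smooth muscle, at 257 and 25.0 CPM. The immediate early genes Fos and Junb were at 3329 and 2597 CPM without Atp13a5 and at 335 and 152 CPM with it. General mural genes were closer: Rgs5, an inhibitor of G protein signalling, was at 4838 and 5525 CPM, Notch3 at 790 and 961 CPM and Myl9 at 720 and 730 CPM. The share of pericytes without Atp13a5 was 6.67% to 19.2% in the R182C-TgN3 mice and 5.56% to 25.0% in the WT-TgN3 mice. This split and the genes named for it were chosen after their values were seen, pool barcodes over mice and are a description, and Atp13a5 is itself one of the selecting markers.

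**Figure D2:**
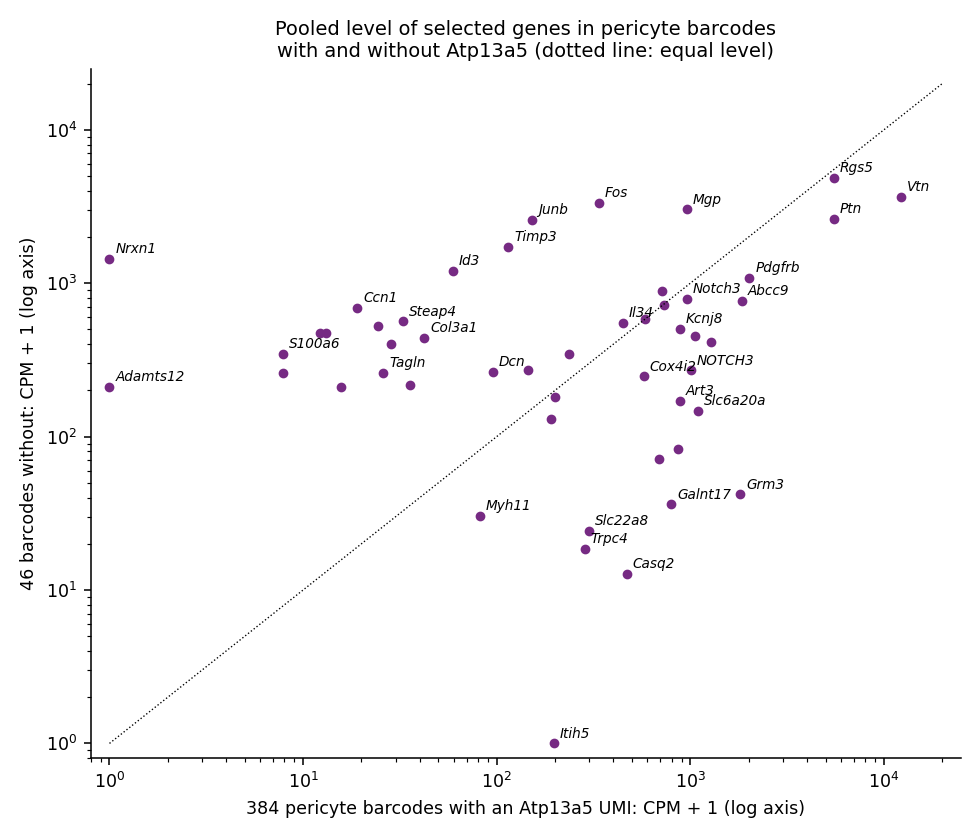
Pooled level of selected genes in pericyte barcodes with an Atp13a5 UMI (x axis, CPM + 1, log axis) and without one (y axis, CPM + 1, log axis), fibroblast-gene barcodes left out, with part of the points labelled. Grm3, Casq2 and Trpc4 lie far below the line of equal levels, Timp3, Id3 and Junb above it, and Rgs5 and Notch3 close to it.

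Setting pericytes beside smooth muscle of the same mice describes what the selection separated. Values here are the mean over 11 mice of the difference in log2(CPM + 1), pericytes minus smooth muscle, with its SD, and they carry no test because the cells were selected on this contrast. Of 7811 genes measured at 20 CPM or more in either cell type, 1105 (14.1%) were higher in pericytes in all 11 mice and 824 (10.5%) were lower in all 11, with a median over all genes of 0.19. Abcc9 and Kcnj8 led the higher genes by construction, at 1516 ± 306 and 722 ± 201 CPM (SD, n = 11) against 4.41 ± 3.17 and 2.91 ± 2.03 CPM. Grm3, outside the selection, came between them with 1418 ± 417 CPM against 4.89 ± 5.26 CPM, a difference of 8.38. Further genes of the top 15 were Ano4 (a membrane protein of the anoctamin family, 410 against 1.86 CPM), Ptn (the growth factor pleiotrophin, 4786 against 44.6 CPM), Slc6a13 (a GABA and taurine transporter, 128 against 0.0685 CPM) and Ggt1 (a glutathione-cleaving enzyme, 129 against 0.126 CPM). Dcn and Apod also ranked there, but Dcn went from 7.58 to 5.44 and Apod from 7.18 to 3.26 on the log2 scale when the fibroblast-gene barcodes were left out.

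Of 32 pericyte identity genes, a list that holds none of the 5 markers, 20 were higher in pericytes in all 11 mice and 1 was lower (median 1.37, all genes 0.19). Pdgfrb was at 1688 ± 375 CPM against 295 ± 40.7 CPM (SD, n = 11), a difference of 2.49 ± 0.38. The surface peptidase gene Anpep was at 128 ± 35.6 against 2.44 ± 1.73 CPM, and the surface protein gene Ifitm1 at 590 ± 201 against 10.2 ± 7.16 CPM. Mcam, an adhesion molecule, was the exception at 175 ± 57.0 against 511 ± 56.3 CPM. The list thus leaned toward pericytes on genes the selection did not read, and Cspg4 (NG2 proteoglycan) was higher in 10 of the 11 mice.

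Ion channel genes split in both directions. Of 30 measured channel and calcium genes 6 were higher and 11 lower in all 11 mice (median -0.28). Beside the potassium channel genes, pericytes had more Trpc4 (a receptor-operated cation channel, 207 ± 61.1 against 21.1 ± 5.77 CPM), more Itpr2 (an inositol trisphosphate receptor, 386 ± 100 against 31.7 ± 8.29 CPM) and more Casq2 (368 ± 99.3 against 48.5 ± 13.6 CPM). Smooth muscle had more Kcnma1 (the large-conductance calcium-activated potassium channel, 532 ± 96.4 against 2.48 ± 5.68 CPM in pericytes), Ryr2 (a ryanodine receptor) and Pln (phospholamban, 1260 ± 104 against 2.97 ± 5.10 CPM), which had the most negative difference of the genes measured in the same direction in all mice at -9.20 ± 1.60. Among 24 vasoactive receptor and cyclic GMP genes, 7 were higher and 6 lower in all 11 mice (median 0.64). The higher ones included the purinergic receptor gene P2ry14 (531 ± 204 against 63.6 ± 12.3 CPM), the thromboxane receptor gene Tbxa2r and the cyclic GMP synthesis genes Gucy1a2 and Gucy1b1. Ramp1, a co-receptor for the vasodilator CGRP, was at 2.40 ± 4.66 CPM against 174 ± 23.8 CPM in smooth muscle, and the serotonin receptor gene Htr1b had 0 UMIs in pericytes.

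The contractile list was lower as a block. Of 29 genes 26 were lower in pericytes in all 11 mice and 0 higher (median -4.71), with Myh11 and Acta2 among them by selection. Tagln was at 47.4 ± 44.6 against 8570 ± 1242 CPM. Myosin light chain was retained at a lower level, with Myl9 at 651 ± 139 against 3810 ± 549 CPM and Mylk, its kinase, at 391 against 2676 CPM. Cnn1 (calponin) had 0 UMIs among 1526534 pericyte UMIs against 237 ± 43.2 CPM in smooth muscle, which is at least 120-fold lower when 3 UMIs over all pericytes are taken as the floor (1.97 CPM). On the same floor, which covers counting error only, Sh3bgr was at least 63.3-fold and the protease inhibitor gene Pi15 at least 57.4-fold lower.

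Basement membrane and transporter genes differed in both directions, more of them toward pericytes. Of 40 matrix genes 12 were higher and 6 lower in all 11 mice (median 0.91, and 0.17 without the fibroblast-gene barcodes). Lama2, a laminin chain, was at 1366 ± 230 against 67.0 ± 21.4 CPM, and its difference was 4.38 with and 4.33 without those barcodes. The laminin chain genes Lamc3 and Lama4 and the nidogen gene Nid1 were also higher in all 11 mice, at 256, 238 and 477 CPM against 36.0, 57.0 and 86.9 CPM. Elastin (Eln), a protein of arterial walls, was lower at 20.3 ± 24.0 against 205 ± 56.8 CPM, and Lama5 was at 6.26 ± 8.05 against 131 ± 13.2 CPM. Of 27 measured transporter genes 13 were higher and 3 lower (median 1.08). Slc22a8, an organic anion transporter, was at 239 ± 81.7 against 1.25 ± 1.22 CPM, but endothelial cells also held 242 CPM of it. Slc16a12 (a monocarboxylate family carrier), Slc30a10 (a manganese exporter) and Slc12a2 (a sodium, potassium and chloride cotransporter) were at 318, 224 and 582 CPM against 10.5, 6.20 and 44.1 CPM.

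Signalling genes gave smaller medians. Of 22 measured Notch pathway genes 7 were higher and 2 lower in all 11 mice (median 0.31). The receptor gene Notch1 was at 313 against 85.5 CPM, the coactivator gene Maml2 at 709 ± 108 against 264 ± 72.1 CPM and the target gene Heyl at 243 ± 70.8 against 142 ± 19.6 CPM. The target gene Hes1 ran the other way, with a difference of -0.79 ± 0.56, as did the receptor gene Notch2. Of 32 PDGF and TGF-beta genes 3 were higher and 10 lower (median -0.10). The 3 higher genes were Pdgfrb, the co-receptor gene Eng and Tgfb1, whereas the ligand genes Pdgfa, Pdgfc, Pdgfd, Tgfb2 and Tgfb3 were all lower. Of 25 inflammation genes 7 were higher and 2 lower (median 0.90), the higher ones including the chemokine gene Cxcl12 (238 ± 73.1 against 16.4 ± 4.33 CPM) and Il34, a ligand of the microglial receptor Csf1r (416 ± 91.4 against 98.8 ± 17.3 CPM).

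Mitochondrial and stress genes also differed between the cell types. Of 78 nuclear oxidative phosphorylation genes 38 were lower and 2 higher in all 11 mice (median -0.66), and of 13 genes of mitochondrial DNA 12 were lower and 0 higher (median -0.86). The 2 higher genes were Cox4i2 (459 ± 146 against 96.5 ± 21.3 CPM) and Ndufa4l2 (830 ± 225 against 160 ± 32.2 CPM), both variants of respiratory chain subunits that are linked to low oxygen, while the usual form Ndufa4 was at 42.5 ± 23.0 against 429 ± 65.5 CPM. Of 26 hypoxia and glycolysis genes 3 were higher, Higd1b of the selection among them, and 5 lower (median -0.22). Endoplasmic reticulum stress genes were higher in 10 of 21 and lower in 0 (median 1.27). Among them the chaperone genes Hspa5 and Hsp90b1 were at 608 ± 297 and 563 ± 207 CPM against 219 ± 65.3 and 261 ± 52.9 CPM. Dissociation stress genes, which rise when tissue is digested, were lower in 15 of 25 and higher in 0 (median -2.27), and their summed level was 7747 ± 5509 CPM in pericytes against 31150 ± 7038 CPM in smooth muscle. The limit of 10% mitochondrial UMIs applied to both cell types, and the part of digestion or of the greater depth per smooth muscle cell in these differences was not tested.

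**Figure D3:**
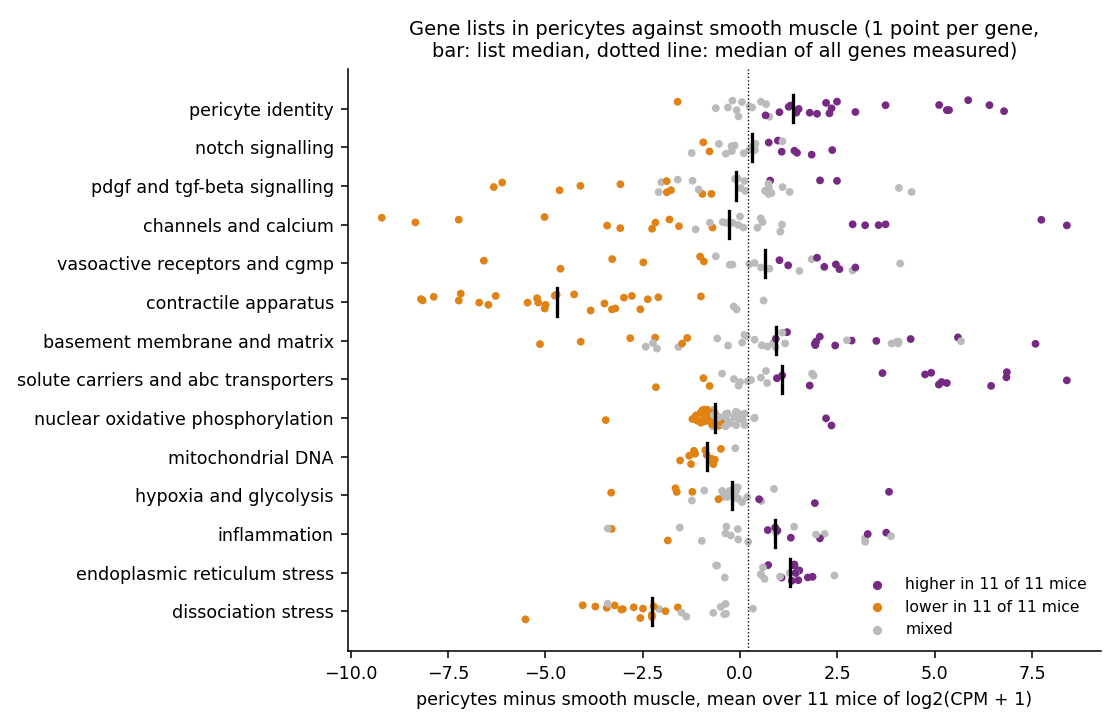
Difference in log2(CPM + 1), pericytes minus smooth muscle, mean over 11 mice (x axis), for each measured gene of 14 lists (y axis), with the list medians as bars and the median of all 7811 genes as a dotted line. The contractile list lies to the left (median -4.71, 26 of 29 lower in all mice), whereas the identity, matrix and transporter lists extend to the right.

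The human NOTCH3 transcript was read in pericytes of every mouse, which checks the labels. In R182C-TgN3 mice 1 to 6 it was at 939, 1230, 1233, 879, 570 and 1287 CPM, and in WT-TgN3 mice 1 to 5 at 351, 257, 378, 220 and 264 CPM. The groups did not overlap, with 1023 ± 279 CPM (SD, n = 6) on the R182C-TgN3 side and 294 ± 67.1 CPM (SD, n = 5) among the WT-TgN3 mice. Mouse Notch3 was at 866, 1028, 861, 840, 647 and 1149 CPM in the R182C-TgN3 and at 786, 489, 873, 457 and 1004 CPM in the WT-TgN3 mice, ranges that overlapped widely. Pooled over mice, 86.5% of R182C-TgN3 pericytes (95% Wilson interval 82.0 to 89.9, counting error only) and 53.2% of WT-TgN3 pericytes (45.4 to 60.8) had a NOTCH3 UMI, at median depths of 3091 and 2603 UMIs. Endothelial cells, which should lack the transcript, had one in 0.619% and 0.288% at median depths of 4958 and 4776 UMIs. Detection in pericytes was thus far above that in endothelial cells in either genotype.

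The ratio of human to mouse NOTCH3 UMIs within a mouse was the clearest difference between genotypes in pericytes. It was 1.08, 1.20, 1.43, 1.05, 0.882 and 1.12 in R182C-TgN3 mice 1 to 6 and 0.453, 0.530, 0.435, 0.484 and 0.268 in WT-TgN3 mice 1 to 5. Every R182C-TgN3 mouse lay above every WT-TgN3 mouse. The log2 ratio was 0.16 ± 0.23 (SD, n = 6) against -1.24 ± 0.38 (SD, n = 5), a difference of 1.40 or 2.63-fold, with a two-sided exact permutation p of 0.00216, the smallest that 462 splits of 11 mice allow, or 0.00649 adjusted over 3 comparisons. Within the batches that held both genotypes, which leaves out R182C-TgN3 mouse 3, the difference was 1.33. The exact permutation p was 0.0278, the smallest that 72 splits allow. Matching the mice by age and label number gave 1.33, where an exact permutation over 5 pairs can reach no p below 0.0625. The human and mouse genes are close relatives, so that reads could be assigned to either, and the ratio is compared between mice and cell types and not read as a ratio of molecules.

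Smooth muscle of the same mice had lower ratios, 0.285 to 0.639 in R182C-TgN3 and 0.0267 to 0.108 in WT-TgN3. There NOTCH3 was at 202 to 370 and at 17.9 to 73.8 CPM, and Notch3 at 546 to 768 and at 610 to 725 CPM. In each of the 11 mice pericytes had the higher ratio. The excess of pericytes over smooth muscle in log2 ratio was 1.42 ± 0.31 (SD, n = 6) for R182C-TgN3 mice, compared with 2.85 ± 0.93 (SD, n = 5) for WT-TgN3 mice. It was smaller in R182C-TgN3 by a difference of -1.44 (two-sided exact permutation p = 0.00216, the smallest possible, and -1.45 within batches with exact permutation p = 0.0278), a test added after the values were seen. In CPM, edgeR gave NOTCH3 a difference of -0.69 (SE 0.33) between the genotype effects of the 2 cell types, which did not pass (adjusted p = 0.849). This value ran from -0.39 without WT-TgN3 mouse 3 to -1.02 without WT-TgN3 mouse 4, and was -0.45 without WT-TgN3 mouse 1. It was -0.91 without the fibroblast-gene barcodes, -0.93 with at least 3 markers (10 mice) and -1.09 in Atp13a5-positive barcodes. These did not pass (edgeR adjusted p = 0.554, 0.551 and 0.124). With Myh11 at 0 and Acta2 at most 1 it was -2.06 and passed (7 mice, edgeR adjusted p = 0.0393). The pericytes without Atp13a5 had lower pooled ratios than those with it, 0.476 (45 and 95 UMIs) against 1.28 (1012 and 788 UMIs) in R182C-TgN3 and 0.0370 (1 and 40 UMIs) against 0.473 (155 and 328 UMIs) in WT-TgN3, values that are not tested.

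**Figure D4:**
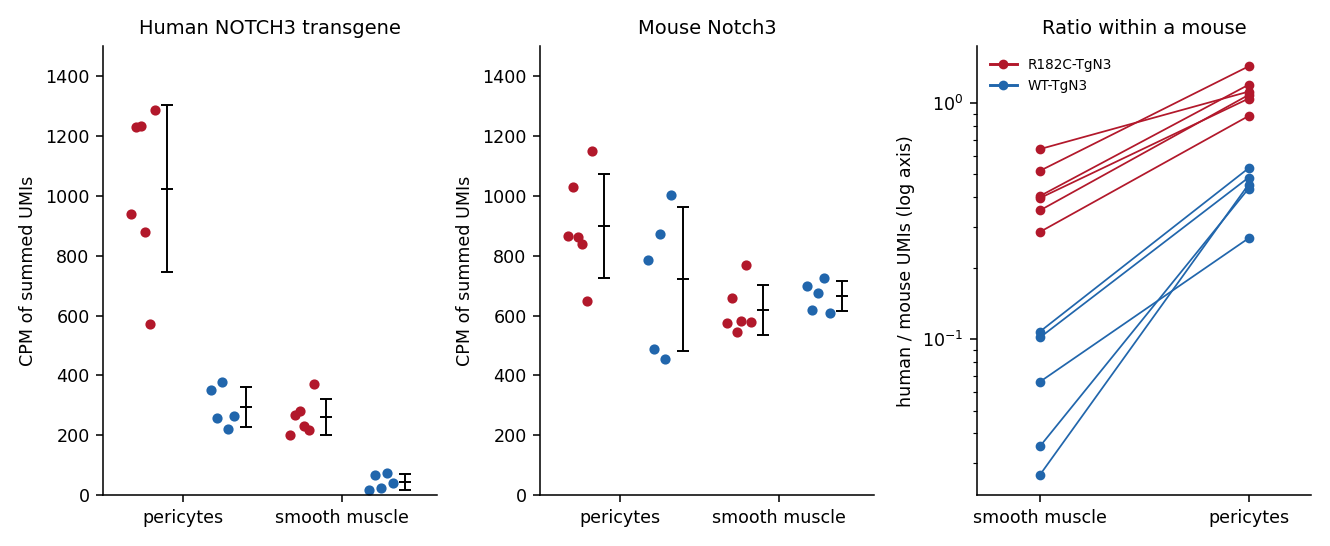
Human NOTCH3 and mouse Notch3 in CPM per mouse (points) with the mean and SD of each group (bars) in pericytes and smooth muscle, and the human to mouse ratio in both cell types of a mouse (lines, log axis), R182C-TgN3 in red and WT-TgN3 in blue. In pericytes NOTCH3 was at 570 to 1287 CPM in R182C-TgN3 and 220 to 378 CPM in WT-TgN3, and the ratio rose from smooth muscle to pericytes in all 11 mice.

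Across the transcriptome of pericytes, edgeR's quasi-likelihood test on UMIs summed per mouse called 1 of 2246 genes tested (0.0445%) between the genotypes at an adjusted p under 0.05. It was NOTCH3 itself, higher in R182C-TgN3 with a log2 fold change of 1.83 (SE 0.23, edgeR adjusted p = 0.000987). DESeq2 also called 1 gene. At an unadjusted p under 0.05, edgeR had 144 of its 2246 genes and DESeq2 237 of the 13502 to which it gave a p-value. Groups did not overlap for 11 genes (0.49% of those tested). Mouse Notch3 had a log2 fold change of 0.36 (SE 0.21, edgeR adjusted p = 0.782). The call for NOTCH3 was lost with mitochondrial UMIs limited to 5% (8 mice) or 20%, with Myh11 at 0 and Acta2 at most 1 (7 mice), and in the 4 mice with at least 40 pericytes, where its log2 fold change was 1.63 (edgeR adjusted p = 0.297). At 20% the limit admitted 19 further barcodes, 12 of them with 27806 to 90730 UMIs against at most 27145 in the original pericytes.

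No other listed gene passed the test, and values are given to show their size. Pericyte identity genes had fold changes above 0 in 28 of 31 tested (median log2 0.22, all genes -0.000384), 4 of them at an unadjusted p under 0.05. Ednra, the endothelin receptor, was at 503, 482, 450, 406, 417 and 395 CPM in the R182C-TgN3 and at 435, 257, 268, 185 and 343 CPM in the WT-TgN3 mice (log2 fold change 0.64, SE 0.19, edgeR adjusted p = 0.758). The groups overlapped through WT-TgN3 mouse 1. Pdgfrb (0.28), Rgs5 (0.37) and Cald1 (0.04, encoding caldesmon) had adjusted p values of at least 0.758 in edgeR. The markers used for selection had fold changes of 0.35 for Vtn, 0.29 for Kcnj8, 0.08 for Abcc9, 0.51 for Higd1b and 0.19 for Atp13a5. Fibroblast-gene barcodes held a mean of 8.43% of the pericyte UMIs of R182C-TgN3 mice and 19.5% of those of WT-TgN3 mice. Without them the fold changes were 0.20 for Rgs5, 0.16 for Pdgfrb, 0.55 for Ednra, 0.18 for Vtn, 0.15 for Kcnj8, -0.04 for Abcc9, 0.29 for Higd1b and 0.06 for Atp13a5.

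Endoplasmic reticulum stress genes had fold changes above 0 in 11 of 12 tested (median log2 0.39), with 1 at an unadjusted p under 0.05. Manf, a secreted factor released under such stress, was at 224, 179, 141, 290, 318 and 294 CPM in R182C-TgN3 and at 33.4, 137, 86.6, 162 and 198 CPM in WT-TgN3 pericytes (log2 fold change 0.86, SE 0.31, edgeR adjusted p = 0.758). Its ranges overlapped between 141 and 198 CPM. Hspa5, the main chaperone of the compartment, was at 405 to 1283 and at 251 to 872 CPM (0.50, SE 0.30, edgeR adjusted p = 0.782). Without the fibroblast-gene barcodes the log2 fold changes were 1.19 for Manf and 0.69 for Hspa5. Those of Pdia3, Hsp90b1 and Calr on the same list went from 0.48, 0.35 and 0.21 to 0.74, 0.56 and 0.34. None of these passed (edgeR adjusted p at least 0.423). R182C-TgN3 mouse 5 had the highest Hspa5, Hsp90b1 and Manf of all 11 mice.

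Matrix and inflammation genes leaned the other way. Of 25 matrix genes tested 7 had fold changes above 0 (median log2 -0.14) and 7 an unadjusted p under 0.05. Col1a2, a chain of collagen I, was at 95, 150, 133, 184, 197 and 120 CPM in R182C-TgN3 and at 184, 378, 197, 353 and 343 CPM in WT-TgN3 pericytes (log2 fold change -1.04, SE 0.25, edgeR adjusted p = 0.622). Without the fibroblast-gene barcodes the fold change of Col1a2 was -0.10, and that of Mgp went from -1.03 to 0.09. Timp3 was at 335, 265, 211, 454, 504 and 156 CPM in R182C-TgN3 and at 334, 747, 480, 1052 and 515 CPM in WT-TgN3 (-1.03, SE 0.31, edgeR adjusted p = 0.758). It overlapped between groups and kept a fold change of -1.20 without those barcodes (edgeR adjusted p = 0.05001, just above the threshold), and Timp3 was also the second gene called when at least 3 of the 5 markers were required (-1.31, edgeR adjusted p = 0.0345). In the barcodes with an Atp13a5 UMI, however, Timp3 was at 98.2 ± 48.1 CPM (SD, n = 6) and 97.8 ± 80.0 CPM (SD, n = 5), and the 46 barcodes without Atp13a5 held 295 Timp3 UMIs against 132 in the 384 with it. Vim, the mesenchymal intermediate filament vimentin, was at 83.8, 91.7, 63.2, 96.6, 98.7 and 82.7 CPM in R182C-TgN3 and at 117, 120, 102, 260 and 172 CPM in WT-TgN3, which did not overlap, with a fold change of -0.94 (SE 0.27) that did not pass (edgeR adjusted p = 0.758). Of 12 inflammation genes 2 were above 0 (median log2 -0.38), with Socs3, a feedback inhibitor of cytokine signalling, at -2.29 (SE 0.73, edgeR adjusted p = 0.758) and the antigen presentation gene B2m at -0.81. Without WT-TgN3 mouse 4, which had 572 CPM of Socs3 against 0 to 172 CPM in the other WT-TgN3 mice, the fold change of Socs3 was -1.13, and that of B2m was -0.16 without the fibroblast-gene barcodes.

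Of the other lists, vasoactive genes were above 0 in 14 of 16 tested (median log2 fold change 0.23, 2 genes at an unadjusted p under 0.05) and channel genes in 13 of 16 (0.18, 1 gene). Nuclear oxidative phosphorylation genes had a median log2 fold change of 0.08 over 63 tested, the contractile list -0.05 over 13, the Notch list 0.01 over 13 (NOTCH3 included), the PDGF and TGF-beta list -0.07 over 11, transporters -0.09 over 16 and hypoxia and glycolysis -0.04 over 11. In the Notch list the coactivator gene Maml2 had a fold change of 0.01 (SE 0.17). Dissociation stress genes had a median of -0.54 over 19 tested with 4 above 0, and their summed level was 2961 to 18130 CPM in R182C-TgN3 and 3476 to 16970 CPM in WT-TgN3 pericytes (two-sided exact permutation p = 0.461). Jun alone ran from 156 to 2923 CPM among R182C-TgN3 mice. The part of digestion in these values was not tested.

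Whether the genotype effect differed between pericytes and smooth muscle was tested directly, with mouse as a block. edgeR called 0 of 6883 genes (0.0%), with 400 at an unadjusted p under 0.05. The lowest adjusted p was 0.117, for Cxcl1 (difference of log2 fold changes -4.22, SE 0.83) and Gsn (-2.76, SE 0.56), a chemokine gene and the actin-severing protein gelsolin. With the fibroblast-gene barcodes left out 4 genes passed, all with a more negative genotype effect in pericytes: Cxcl1 (-4.44, edgeR adjusted p = 0.00159), the calcium-binding protein gene S100a6 (-3.56, edgeR adjusted p = 0.00159), Timp3 (-1.21, edgeR adjusted p = 0.0133) and Socs3 (-2.47, edgeR adjusted p = 0.0133). The 46 barcodes without Atp13a5 held 89 Cxcl1 and 59 S100a6 UMIs, against 27 and 8 in the 384 barcodes with it. With only Atp13a5-positive barcodes 0 passed. The difference of log2 fold changes was then 0.05 for Timp3 and -1.62 (SE 0.65) for Socs3. For S100a6, on the 8 UMIs above, it was -7.21 (SE 1.65, edgeR adjusted p = 0.160). Both alternatives were chosen after seeing the data. Leaving out 1 mouse gave 1 call without WT-TgN3 mouse 1 (Cxcl1), 1 without WT-TgN3 mouse 3 (Gsn) and 2 without WT-TgN3 mouse 4 (Dcn and Ccl2). Timp3 was at 989 to 1205 CPM in smooth muscle of all 11 mice.

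The share of pericytes among barcodes did not differ between the genotypes beyond the spread between mice at full depth. After thinning to 2000 UMIs, which also left out shallower barcodes, the difference passed over all mice. Within batches, which leaves out R182C-TgN3 mouse 3, it did not pass. The share was 0.567%, 1.16%, 1.45%, 0.582%, 0.906% and 0.561% in R182C-TgN3 mice 1 to 6 and 0.639%, 0.396%, 0.936%, 0.703% and 0.289% in WT-TgN3 mice 1 to 5. The 2 highest shares were in R182C-TgN3 mice and the 2 lowest in WT-TgN3 mice, with overlap in between. The means were 0.870 ± 0.371% (SD, n = 6) and 0.593 ± 0.256% (SD, n = 5), a difference of 0.277 percentage points (two-sided exact permutation p = 0.195, adjusted over 3 comparisons 0.242, and 0.162 within batches with p = 0.444). Within-batch values leave out R182C-TgN3 mouse 3, which was alone in its batch and had the highest share. Leaving out that mouse without regard to batch also gave 0.162 (two-sided exact permutation p = 0.341). At 6 months the groups averaged 0.683% and 0.657%, and at 9 months 1.06% and 0.496%. The selection reads UMIs and so depends on depth: with every barcode thinned to 2000 UMIs, which left out 3770 shallower barcodes of R182C-TgN3 and 2711 of WT-TgN3 mice, the selection found 303 and 116 pericytes and shares of 0.649% to 1.61% and 0.185% to 0.703%. The difference was then 0.517 (two-sided exact permutation p = 0.0152), and 0.399 within batches (exact permutation p = 0.0556). Thinning lowers the counts of limiting genes as well as of markers. Median depth per pericyte was 2007 UMIs in WT-TgN3 mouse 3 and 2122 in WT-TgN3 mouse 1, close to the limit. Their pericytes went from 59 to 30 and from 28 to 19. Those of WT-TgN3 mouse 2 rose from 23 to 28 and those of R182C-TgN3 mouse 2 from 48 to 59. The part of the barcodes left out in the thinned difference was not tested. As a share of mural cells, pericytes made up 16.8% to 37.3% in R182C-TgN3 and 7.52% to 34.3% in WT-TgN3 mice, with means of 22.8 ± 8.28% (SD, n = 6) and 15.7 ± 11.2% (SD, n = 5) and a difference of 7.13 (two-sided exact permutation p = 0.242, adjusted over 3 comparisons 0.242, and 4.23 within batches with p = 0.444). Without WT-TgN3 mouse 3, which had 34.3%, this difference was 11.8 (two-sided exact permutation p = 0.0476), and thinned to 2000 UMIs it was 11.9 (two-sided exact permutation p = 0.0130, and 9.23 within batches with p = 0.0278). Median mitochondrial UMIs were 7.24% in smooth muscle and 3.89% in pericytes. Limited to 5%, the shares of mural cells were 50.0% to 77.6% in R182C-TgN3 and 29.7% to 79.2% in WT-TgN3 mice. Their difference was then 15.6 (two-sided exact permutation p = 0.154).

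**Figure D5:**
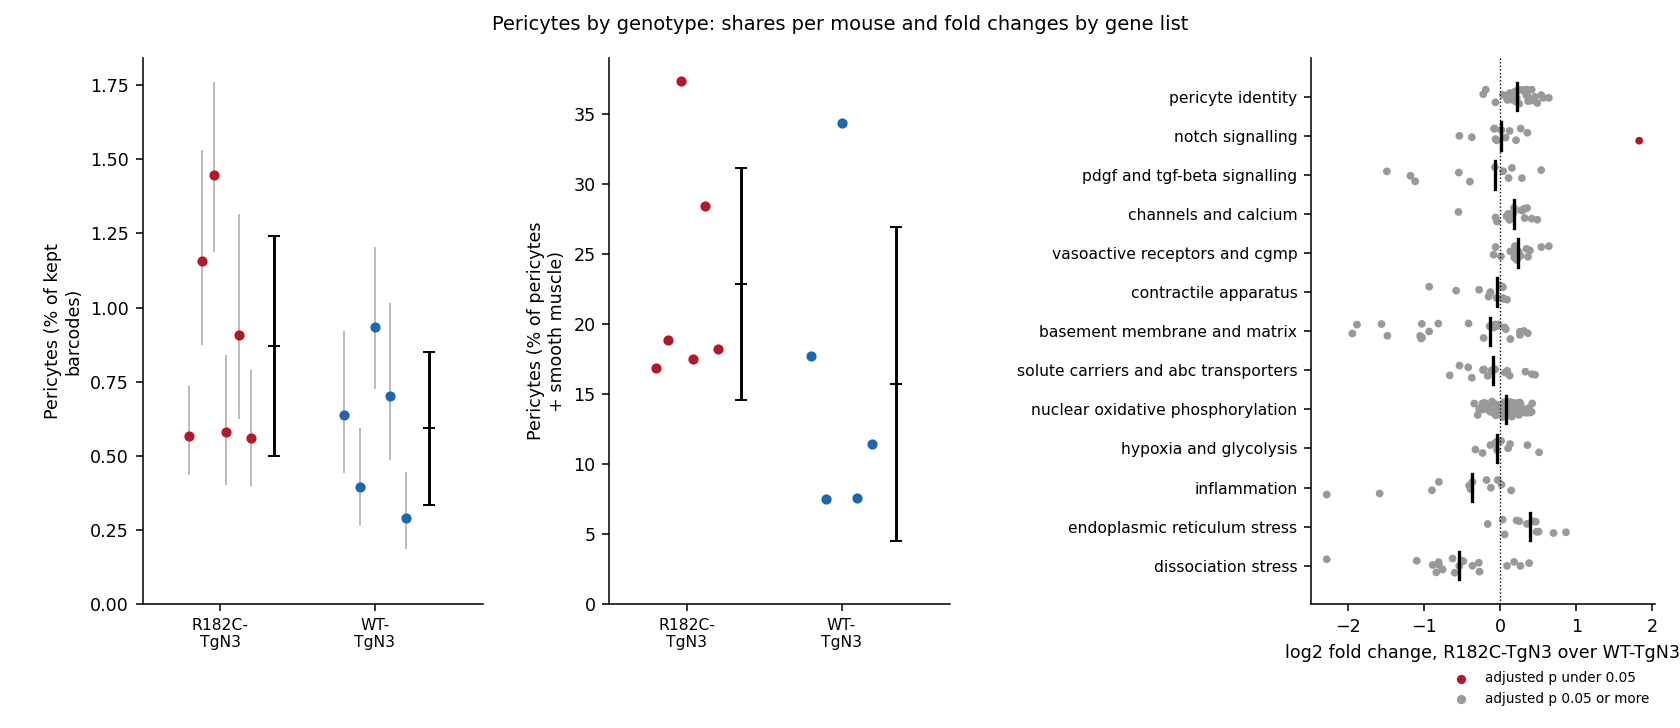
Pericytes as a share of kept barcodes per mouse with 95% Wilson intervals, and as a share of pericytes plus smooth muscle (y axes, %), with group means and SD, and the log2 fold change of each tested gene by list (x axis) with list medians as bars. The shares of both genotypes overlap, and NOTCH3 at 1.83 is the single gene with an adjusted p under 0.05.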

How the data were processed

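The members and gene lists were chosen with earlier results of these data known. The deposited counts are UMIs per gene and barcode, made by the authors with Cell Ranger 7.0.0 (per the labels) against the mm10 transcriptome with human NOTCH3 added. Mice were grouped by the labelled genotype, 1 library each, and nothing says that spread between libraries is free of technical parts. UMIs were summed per mouse over the selected barcodes. Genotypes were compared with edgeR 4.0.16 (quasi-likelihood, TMM, filterByExpr, Benjamini-Hochberg, threshold 0.05) in mice with at least 20 pericytes, after leaving out ribosomal protein, mitochondrial, Gm and Rik genes. DESeq2 1.42.0 was an alternative. Shares and ratios (0.5 added to each count) were compared by exact permutation over mice, with 3 such comparisons of pericytes planned. Within-batch permutations left out R182C-TgN3 mouse 3, the only mouse of its batch. Pericytes and smooth muscle were set side by side as log2(CPM + 1) without a test. The genes named were the selecting genes, NOTCH3 and Notch3, every called gene, and for each list the highest, the lowest p and the largest differences. Further genes named for the fibroblast-gene and Atp13a5 splits, among the list members and in the non-overlapping groups were chosen after their values were seen. A doublet score removed 3126 barcodes and 0 pericytes, and was used only as an alternative. Scripts were checked on simulated data. Alternatives covered the selection limits, filters, normalization, covariates, single mice and barcodes left out. Depth is given with the values. The files of gene and barcode names served as row and column names. Some genes are not reported here.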

Additional observations from a re-analysis of the deposited data

Results flagged for a closer look

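The excess of pericytes over smooth muscle in the log2 ratio of human to mouse NOTCH3 differed between the genotypes by -1.44 (R182C-TgN3 minus WT-TgN3, two-sided exact permutation p = 0.00216, the smallest possible). Of 118 groups of 5 or 6 mice examined for a single distant mouse, 7 had one, and chance gives about 1 in 20. Of these, 4 came from 2 WT-TgN3 mice, and WT-TgN3 mouse 4 had 25.0% of its pericytes without Atp13a5 and 41.8% of its pericyte UMIs in fibroblast-gene barcodes, values whose part in the following was not tested. WT-TgN3 mouse 4 had 410 CPM of the Notch coactivator gene Maml3 (the others 185 to 234), 405 CPM of the respiratory chain gene Cox4i1 (275 to 309) and 462 CPM of Ndufa4l2 (739 to 836). WT-TgN3 mouse 5 had 383 CPM of the calcium pump gene Atp2b1 (134 to 189). R182C-TgN3 mouse 5 had 1129 CPM of the chaperone gene Hsp90b1 (405 to 604). R182C-TgN3 mouse 1 had 1459 CPM of Jund (537 to 811) and 2923 CPM of Jun (156 to 502), both immediate early genes.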

How the results depend on the processing

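Thinning to 2000 UMIs raised the pericyte share difference to 0.517 and that of mural cells to 11.9, past the threshold. Within batches, which leaves out R182C-TgN3 mouse 3, the thinned share (0.399, exact permutation p = 0.0556) did not pass. On thinning, with barcodes under 2000 UMIs left out, WT-TgN3 pericytes went from 158 to 116 and R182C-TgN3 pericytes from 288 to 303. Leaving out each mouse in turn gave 0.162 to 0.363 for the share, 4.23 to 11.8 for mural cells (11.8 without WT-TgN3 mouse 3), 1.23 to 1.48 for the log2 NOTCH3 ratio, 1136 to 1239 genes higher and 831 to 900 lower than in smooth muscle, 1 to 1 genotype genes and 0 to 2 interaction genes. The log2 ratio was 1.63 with Cldn5 and Flt1 at 0 (5 mice, two-sided exact permutation p = 0.10, the smallest possible) and 1.33 in pairs (two-sided exact permutation p = 0.0625, the smallest possible), where the designs could not reach the threshold. Genes higher than in smooth muscle numbered 1796 with Cldn5 and Flt1 at 0 (5 mice) and 1946 with at most 5% mitochondrial UMIs (4 mice), where fewer mice had to agree. Genotype genes numbered 2 with at least 3 markers, 0 with Myh11 at 0 and Acta2 at most 1, 0 at 5% and 0 at 20% mitochondrial UMIs, and 64 of 13515 tested with no filter on low counts (61 lower). Of these 64 genes, 47 were not tested with the filter. Interaction genes numbered 4 with at least 3 markers, 2 with Myh11 at 0, 15 at 5% mitochondrial UMIs, 4 without fibroblast-gene barcodes and 39 of 15526 tested with no filter. The cause was not tested. Label numbers did not pair the mice (correlation of deviations -0.30 to 0.16), and a replicate block called 1 gene, NOTCH3 at 1.71. With batch, sex or age as covariate 1 gene was called, and leaving out shared barcodes kept 1 call. Of 1854 alternative values of 55 named genes, of which 1 was called, 176 changed sign below the threshold, 6 became calls, 4 lost one and 0 reversed one.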
